A study of Homo sapiens with 8 samples.

Results

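The transcription factors of the AP-1 group and their companions among the immediate early genes were followed in KG1a cells, an established human acute myeloid leukaemia line of immature, CD34-positive phenotype, after 48 h of drug treatment. The 10 genes are a list of names, with no threshold on their values: JUN, JUNB and JUND (the JUN family), FOS, FOSB, FOSL1 and FOSL2 (the FOS family), ATF3, EGR1 and KLF6. They are 10 of the 25168 genes in the deposited RNA-seq count table, and all 10 were among the 12843 genes that passed the filter on low counts. The study has 8 libraries in 4 groups of 2: DMSO vehicle, 5 µM TAK-981, 1 µM venetoclax, and 5 µM TAK-981 with 1 µM venetoclax (the combination). TAK-981 inhibits the SUMO-activating enzyme, and so the attachment of the ubiquitin-like SUMO proteins to their targets. Venetoclax inhibits the survival protein BCL2. All groups share the cell line, medium and 48 h of culture, so every value comes from 1 line. No label states whether replicates were separate cultures, so p-values here rest on the spread between libraries that may differ for technical reasons alone.

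JUN proteins pair with one another or with FOS proteins through a leucine zipper, and the pairs, called AP-1, bind short DNA elements in promoters and enhancers. Many of these genes are switched on within minutes of a growth signal or stress by MAP kinases acting on factors already bound at their promoters, and their RNAs are usually short-lived. JUND and FOSL2 tend to be expressed more steadily than JUN, FOS and EGR1. JUN and FOS proteins are among the known targets of SUMO attachment. In blood cells, AP-1 and EGR1 are best known for their part in monocyte differentiation and in lymphocyte activation.

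The depth of the libraries ranged from 13204588 to 26304900 counts assigned to genes. The 5 leukocyte and progenitor markers CD34, PTPRC, CD38, SPN and CD7 were detected in every library, with a summed level of 2474 to 3049 CPM (counts scaled to library size), while HBB, HBA1, EPCAM, KRT18 and COL1A2 were at 0 in all 8. The T and B lymphocyte markers summed to 23.6 to 27.4 CPM in the combination and 30.7 to 49.98 CPM in the other groups, and their part in the results below was not tested. The libraries of a group were not copies of each other. The venetoclax pair stood furthest apart, with a median absolute log2 difference of 0.262 over the 9858 genes of at least 5 CPM, against 0.0880 to 0.101 in the other groups. Values of the 10 genes in the venetoclax group are therefore given per library.

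The promoters of 9 of the 10 genes are in the RefSeq promoter table used here (build GRCh38.p14), which covers 250 bases before and 50 bases after each transcription start. They are shown because members with similar elements can then be set beside their values. Each element was searched on both strands, and each share is over the 35116 promoters of the same length. The element TGACATCA, a variant site known from the JUN promoter, was found in JUN, ATF3 and KLF6 and in 2.61% of all promoters. The full cAMP response element TGACGTCA was found in JUND alone among the members and in 1.85% of all promoters. Its first 6 letters, TGACGT, which also match inside the full element, were found in JUND, FOS, FOSB, FOSL2 and EGR1 and in 7.98% of all promoters. The AP-1 element TGANTCA was found in FOSL2 alone among the members and in 7.71% of all promoters. The CArG box, bound by serum response factor, had 2 matches in EGR1, none in the other members, and a match in 1.29% of all promoters. ATF3 has a further promoter entry downstream, chr1:212614768-212615067, with no match to any of these elements. Which ATF3 start was in use was not measured. In the stretches below, 5′ to 3′ along the strand of each gene, capitals mark the matches to these elements on either strand.
JUN: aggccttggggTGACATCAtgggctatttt
KLF6: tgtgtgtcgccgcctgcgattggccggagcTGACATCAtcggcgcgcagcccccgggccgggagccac
ATF3: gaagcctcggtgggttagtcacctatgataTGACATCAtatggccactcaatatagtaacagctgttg
JUND: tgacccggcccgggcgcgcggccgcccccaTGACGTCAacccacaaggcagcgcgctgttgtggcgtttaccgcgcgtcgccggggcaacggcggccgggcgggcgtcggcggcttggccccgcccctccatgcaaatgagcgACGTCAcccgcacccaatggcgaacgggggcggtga
FOSB: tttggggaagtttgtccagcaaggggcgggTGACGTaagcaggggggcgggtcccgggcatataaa
FOSL2: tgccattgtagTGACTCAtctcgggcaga
EGR1: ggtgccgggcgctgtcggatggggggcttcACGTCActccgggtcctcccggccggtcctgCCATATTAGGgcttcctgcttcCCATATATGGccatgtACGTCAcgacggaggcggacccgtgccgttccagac

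These stretches lie at chr1:58784096-58784125 on the minus strand for JUN, chr10:3785344-3785411 on the minus strand for KLF6, and chr1:212565254-212565321 on the plus strand for ATF3. The others lie at chr19:18281674-18281852 on the minus strand for JUND, chr19:45467906-45467971 on the plus strand for FOSB, chr2:28392851-28392879 on the plus strand for FOSL2, and chr5:138465313-138465447 on the plus strand for EGR1. The JUN and FOSL2 stretches fall inside the gene spans of the count table, whose annotated starts lie further upstream than those of RefSeq, and only short stretches are given for them. The TGACATCA match starts 67 bases before the RefSeq start in JUN and 172 bases before it in KLF6. In ATF3 it starts 123 bases before the upstream of the RefSeq starts. A match describes letters in a window, and binding was not measured.

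**Figure D1:**
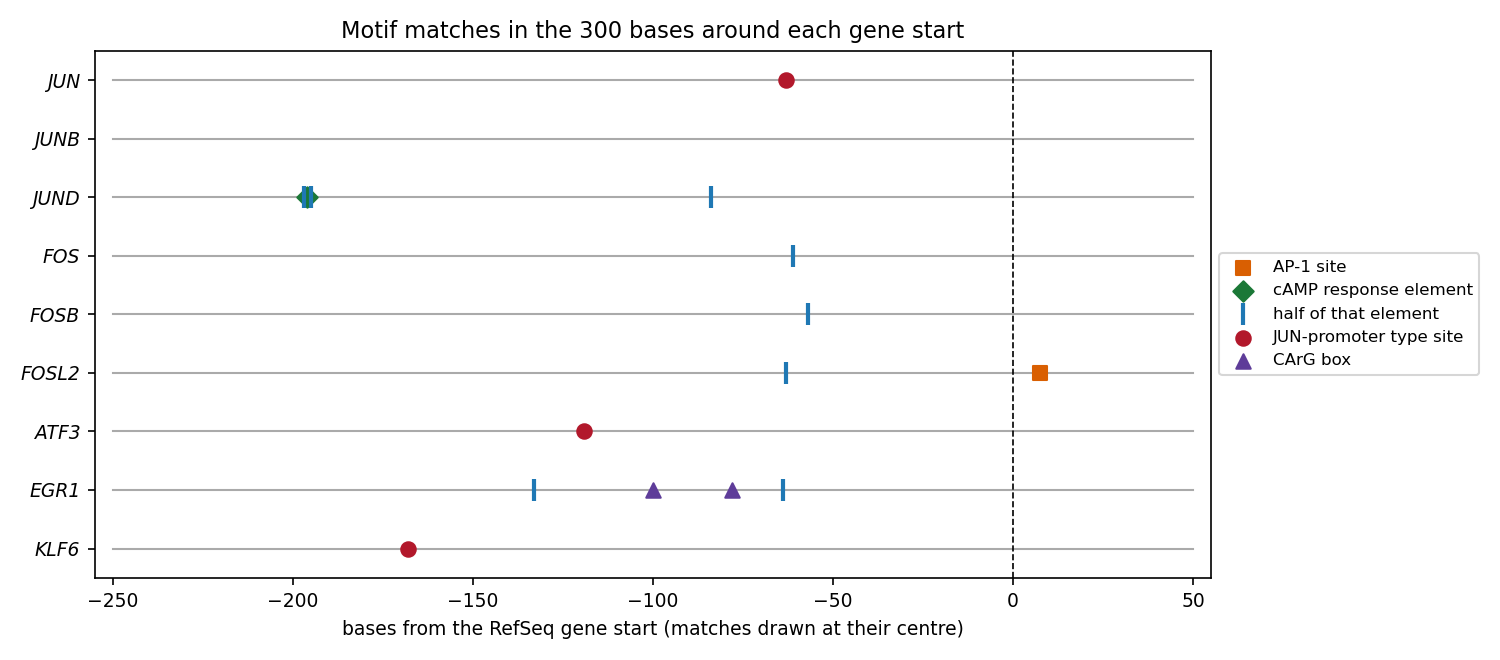
Position of each element match (horizontal axis, bases from the RefSeq transcription start) in the promoter windows of the members with an entry, by kind of element. The 3 genes with TGACATCA are JUN, ATF3 and KLF6, and the CArG box matches are in EGR1.

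Levels differed widely among the members. Counts were divided by gene length and scaled to the library to give TPM, the scale on which genes can be compared with each other. In the 2 vehicle libraries JUND, a JUN family member often expressed steadily, stood at 205 and 187 TPM. FOSL2, the FOS relative also called FRA2, stood at 87.2 and 84.2 TPM, and KLF6, a zinc finger factor of the Krüppel-like family, at 44.0 and 39.1 TPM. JUNB, which can oppose JUN at some promoters, stood at 19.5 and 22.2 TPM and FOSL1, also called FRA1, at 5.20 and 5.44 TPM. Each of these steps in level was wider than the gap between the vehicle libraries. Below FOSL1 in vehicle stood FOS (4.85 and 2.82 TPM), ATF3 (2.48 and 3.06 TPM), EGR1 (3.32 and 1.95 TPM) and JUN (2.22 and 2.50 TPM). Both FOS values were above both JUN values, but by less than the gap between the FOS libraries. Every other pair of these genes overlapped, so their order is not resolved. FOSB was lowest in vehicle, at 0.153 and 0.0709 TPM.

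**Figure D2:**
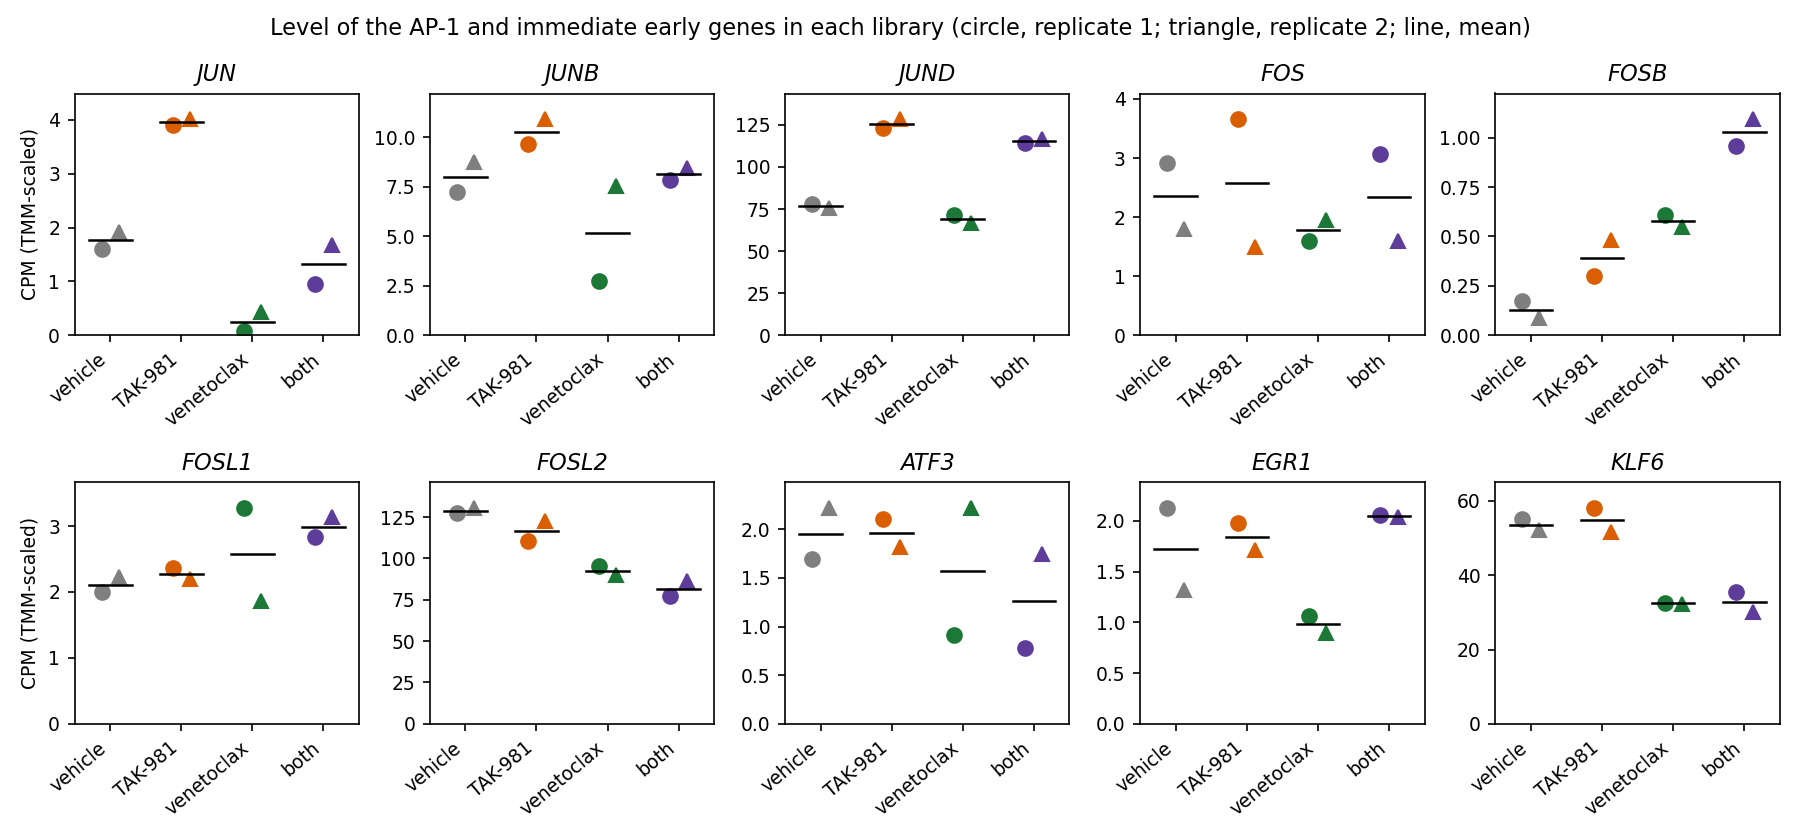
Level of each of the 10 genes in each of the 8 libraries, in CPM on a linear axis from 0 and on its own scale for each gene; symbols are libraries and lines are group means. The TAK-981 and combination libraries of JUND lie above the vehicle libraries, and the venetoclax and combination libraries of FOSL2 and KLF6 lie below them.

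Each family was thus mostly 1 gene. JUND made up 88.4 to 90.4% of the summed TPM of the JUN family in vehicle, and JUNB 8.59 to 10.5% of it. JUN itself, the namesake of the family, made up 0.979 to 1.18% of the family in vehicle, 1.49 to 1.52% with TAK-981, 0.0538 to 0.301% with venetoclax and 0.411 to 0.698% in the combination. The family total followed JUND: it was 212.1 to 227 TPM in vehicle and 344 to 365 TPM with TAK-981. With venetoclax it was 172 to 183 TPM, and in the combination 321 to 327 TPM. In the FOS family, FOSL2 held 89.5 to 91.0% in vehicle, 84.8 to 87.7% with venetoclax and 79.9 to 83.4% in the combination. FOSL1 held 5.34 to 5.87% of the FOS family in vehicle and 11.1 to 11.5% in the combination. FOSB held 0.0767 to 0.157% in vehicle and 1.28 to 1.36% in the combination. The FOS family total was 92.5 to 97.4 TPM in vehicle and 67.1 to 68.5 TPM in the combination. These shares are descriptions, with no test of their own.

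**Figure D3:**
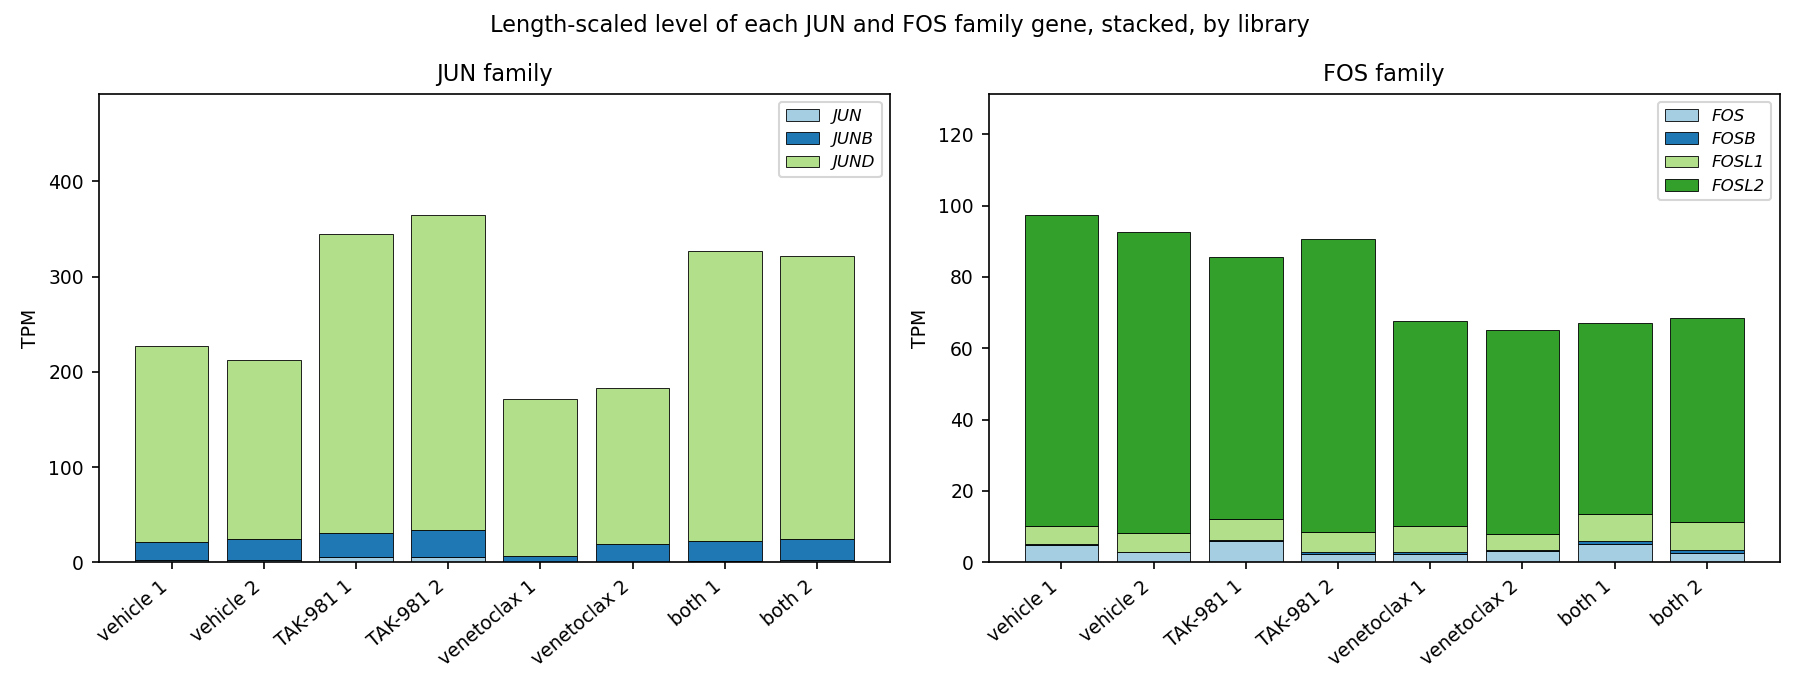
Summed TPM of the JUN family and of the FOS family in each library, split by member. JUND and FOSL2 make up most of each bar in all 8 libraries, and the JUN family total is 344 to 365 TPM with TAK-981 against 212.1 to 227 TPM in vehicle.

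The first question is what TAK-981 alone did to these genes. JUND, at chr19:18279760-18281622 with 1 or 2 exons in its coding transcripts, rose. It stood at 78.1 and 75.7 CPM in vehicle and at 123 and 128 CPM with TAK-981. Both treated libraries were above both vehicle libraries. The log2 change was 0.71 (SE 0.0897, adjusted p = 0.00164 by edgeR's quasi-likelihood test), which is 1.64-fold. JUND is 1 member called higher of 10, beside 5.98% of all genes tested. No member fell, also at an unadjusted p under 0.05 (0 of 10) and by DESeq2 (0) and limma-voom (0), beside 6.18% of all genes.

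JUN, at chr1:58780788-58784327 with 1 exon, was read at 37 and 45 counts in vehicle and at 91 and 75 counts with TAK-981. On the CPM scale these are 1.61 and 1.92 against 3.91 and 4.01, and the groups did not overlap. The log2 change of 1.16 (SE 0.344) missed the threshold, with an adjusted p of 0.0588. The ratio of the summed counts, scaled for depth, was 2.24 (95% counting interval 1.71 to 2.96, which covers counting error only). JUN was called by limma-voom (adjusted p = 0.0443) but not by DESeq2. It was also called with no filter on low counts and with the 4 compared libraries fitted alone. It was not called with DESeq2's size factors or with a mean of at least 1 CPM required. Over all alternatives its log2 change was 1.04 to 1.30. In a fit without both venetoclax libraries, an alternative chosen after seeing the data, its adjusted p was 0.0040. FOSB had 4 and 2 counts in vehicle and 7 and 9 with TAK-981, a log2 change of 1.53 with an adjusted p of 0.139. The other members changed by -0.15 to 0.36 on the log2 scale (FOSL2 and JUNB), and none passed the test.

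Beside these values, the summed level of the monocyte and granulocyte markers also moved with treatment. Of CD14, ITGAM, MPO and ELANE, ELANE was at 0 in all 8 libraries. Their summed level was 2.99 to 3.21 CPM in vehicle and 14.8 to 14.9 CPM with TAK-981. It was 1.13 to 1.45 CPM with venetoclax and 8.16 to 8.87 CPM in the combination. Nearly all of it was ITGAM, an integrin chain of myeloid cells, at 2.95 and 2.95 CPM in vehicle and 14.1 and 14.2 CPM with TAK-981. MPO was at 0 in both vehicle libraries and at 0.473 and 0.642 CPM with TAK-981. CD14 did not rise, at 0.261 and 0.0427 CPM in vehicle and 0.215 and 0.107 CPM with TAK-981. The part of these genes in the JUN and JUND results was not tested. In bulk RNA, more cells of a type and more RNA per cell cannot be told apart.

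Venetoclax alone was the next comparison, and here 3 members fell and 1 rose. KLF6 fell from 55.2 and 52.1 CPM in vehicle to 32.5 and 32.3 CPM, a log2 change of -0.73 (SE 0.119, adjusted p = 0.00544). FOSL2 fell from 127 and 131 CPM to 95.5 and 89.8 CPM, a log2 change of -0.48 (SE 0.100, adjusted p = 0.0126). For both genes the treated libraries lay below both vehicle libraries, and the venetoclax libraries lay close together. KLF6 is at chr10:3775996-3785281 and FOSL2 at chr2:28392448-28417312. The 3 lower calls of 10 (1 of them JUN) stand beside 9.44% of all genes called lower. JUN passed the filter only through groups other than venetoclax, in which it is higher. The 1 higher call, FOSB, stands beside 11.4% called higher, and FOSB passed the filter only through groups in which it is high.

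JUN also fell with venetoclax, at a low count. Its 37 and 45 counts in vehicle became 1 and 11 with venetoclax, or 0.0762 and 0.429 CPM. Both treated libraries were below both vehicle libraries but differed from each other by -1.59 on the log2 scale. The log2 change was -2.53 (SE 0.500, adjusted p = 0.0104). JUN was over the filter level in both libraries of every group but venetoclax, so it was tested only through groups in which it is higher. Its calls in comparisons with the venetoclax group are therefore a description. The ratio of summed counts was 0.175 (95% counting interval 0.0870 to 0.323), or 12 counts against 82. Without the second venetoclax library the log2 change of JUN was -4.42, so its size rests on which library is read.

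FOSB rose with venetoclax from 4 and 2 counts to 8 and 14, a log2 change of 2.09 (SE 0.569, adjusted p = 0.0311). The depth-scaled ratio of 22 counts against 6 was 4.39, with a 95% counting interval of 1.73 to 13.2. FOSB passed the filter on low counts only through the venetoclax and combination groups, in which both its libraries were over the filter level. This call is therefore a description. Its call was lost when any 1 of the 8 libraries was left out (adjusted p from 0.0512 to 0.172). FOSB, at chr19:45467995-45475179, overlaps ERCC1 on the other strand. ERCC1 was at 59.6 to 69.1 CPM and was called in no comparison. The strand setting of the counting is not given in the sources used here, so reads from the 2 genes cannot be told apart. The same holds for JUNB, which HOOK2 (13.1 to 25.2 CPM) overlaps on the other strand. HOOK2 was called higher in the combination against vehicle (log2 change 0.64, adjusted p = 0.0415) and against venetoclax (0.57, adjusted p = 0.0498), and its part in the JUNB values was not tested. FOSL2 is overlapped by FLJ31356, which had 0 to 3 counts per library.

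JUNB, ATF3 and FOSL1 differed between the venetoclax libraries by more than they differed between the venetoclax and vehicle groups. JUNB had 7.25 and 8.75 CPM in vehicle and 2.74 and 7.56 CPM with venetoclax, with a log2 change of -0.56 and an adjusted p of 0.277. ATF3, a stress-induced partner of AP-1, had 1.69 and 2.22 CPM in vehicle and 0.914 and 2.22 CPM with venetoclax. FOSL1 had 1.998 and 2.22 CPM in vehicle and 3.27 and 1.87 CPM with venetoclax, with a log2 change of 0.23 and an adjusted p of 0.615. Without the second venetoclax library the log2 change of JUNB was -1.54, a value that rests on 1 library. With all 8 libraries but no filter on low counts, JUNB was also called lower. EGR1, a zinc finger factor of the early growth response, stood at 2.13 and 1.32 CPM in vehicle and at 1.07 and 0.896 CPM with venetoclax. Its groups did not overlap, and its log2 change of -0.84 had an adjusted p of 0.105. JUND, at 71.6 and 67.0 CPM, had a log2 change of -0.15 and an adjusted p of 0.257.

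The calls for venetoclax depend on the spread being shared among the 8 libraries. When the 4 libraries of this comparison were fitted alone, none of the 10 was called. KLF6 then had an adjusted p of 0.0554, JUN 0.0641, FOSL2 0.0826 and FOSB 0.103, with log2 changes close to those above. Leaving out the first vehicle library also ended the calls of JUN (adjusted p = 0.0629), FOSL2 (0.0902) and KLF6 (0.0654). Leaving out the second vehicle library ended those of JUN (0.0665) and FOSL2 (0.0881).

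In the combination, set against vehicle, JUND and FOSB rose while FOSL2 and KLF6 fell. JUND reached 114 and 117 CPM, a log2 change of 0.59 (SE 0.0898, adjusted p = 0.00180). FOSL2 fell to 77.5 and 86.2 CPM, a log2 change of -0.66 (SE 0.101, adjusted p = 0.00181). KLF6 fell to 35.4 and 30.1 CPM, a log2 change of -0.71 (SE 0.119, adjusted p = 0.00282). The libraries of the combination did not overlap those of vehicle for any of these 3 genes, nor for FOSB and the uncalled FOSL1. The share of all genes without overlap was not computed, so lack of overlap is not read as a result about the members. FOSB rose from 4 and 2 counts to 21 and 15, a log2 change of 2.92 (SE 0.521, adjusted p = 0.00367). Its depth-scaled ratio was 7.83, with a 95% counting interval of 3.27 to 22.7. JUND, FOSL2 and KLF6 remained called in every alternative. FOSB again passed the filter only through groups in which it is high, so its call is a description and supports nothing. The 2 higher calls of 10 (1 of them FOSB) stand beside 12.8% of all genes called higher and the 2 lower calls beside 15.1% called lower, so the number of calls is near that of the table as a whole.

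The remaining 6 members were not called in the combination against vehicle. JUN stood at 0.960 and 1.68 CPM, against 1.61 and 1.92 CPM in vehicle, and the groups overlapped. Its count ratio was 0.700, with a 95% counting interval of 0.474 to 1.02. FOSL1 was at 2.83 and 3.13 CPM against 1.998 and 2.22 CPM, without overlap, and its log2 change of 0.49 had an adjusted p of 0.239. ATF3 was at 0.777 and 1.75 CPM, and its log2 change of -0.71 had an adjusted p of 0.294. FOS, the founding partner of JUN in AP-1, was at 3.06 and 1.602 CPM against 2.91 and 1.79 CPM, and JUNB at 7.86 and 8.45 CPM against 7.25 and 8.75 CPM. FOS differed more between libraries of 1 group than between groups: its TAK-981 libraries had 3.65 and 1.497 CPM and its venetoclax libraries 1.599 and 1.95 CPM. EGR1 was at 2.06 and 2.04 CPM, within the range of its vehicle libraries.

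**Figure D4:**
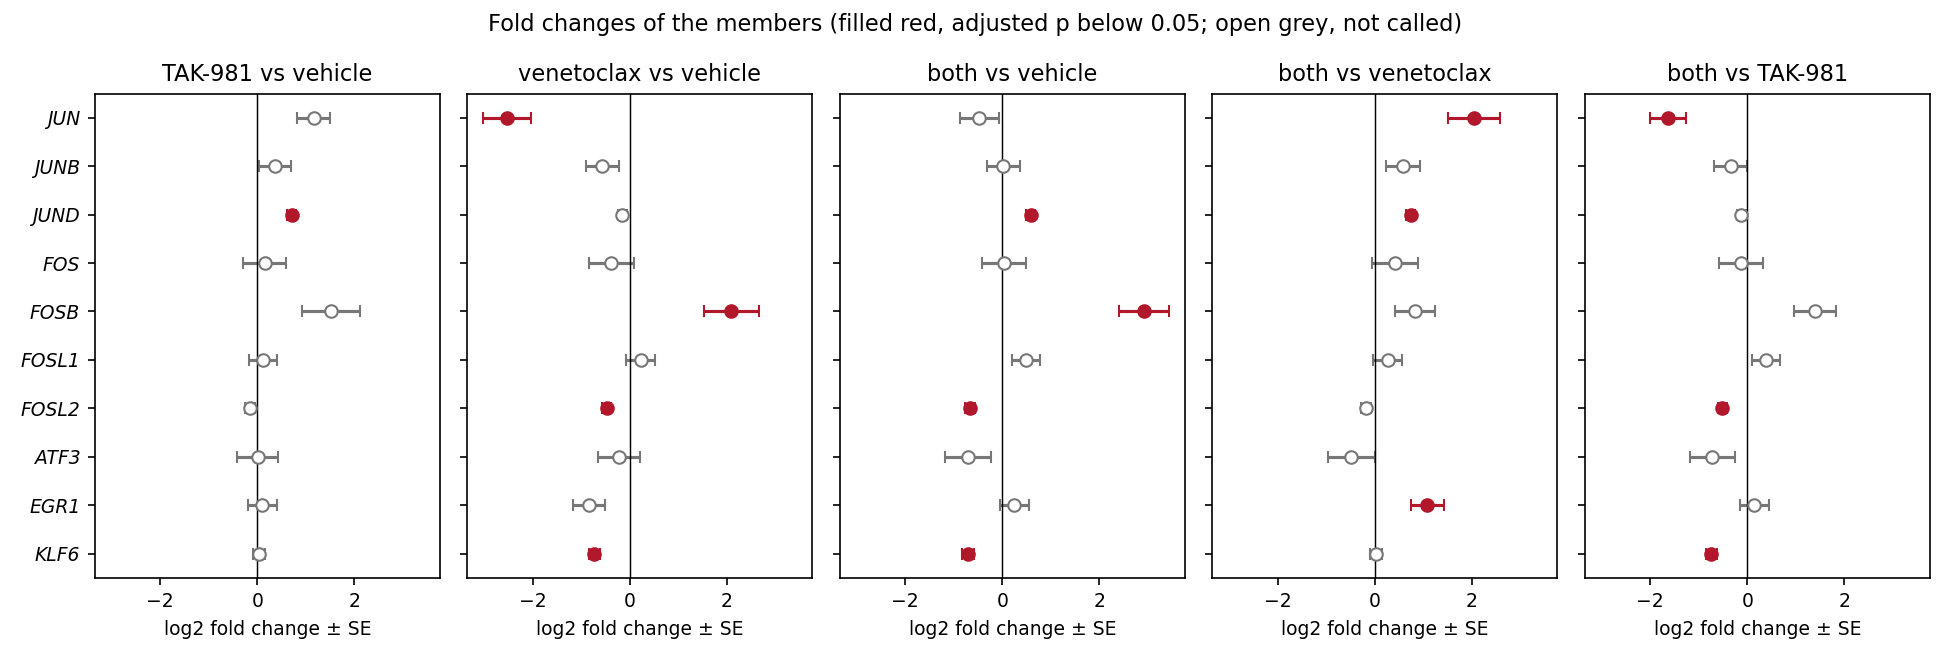
Log2 fold change of each of the 10 genes in the 5 pairwise comparisons, with bars of 1 standard error from edgeR and filled symbols for genes called at an adjusted p under 0.05. JUND is called higher in the 2 TAK-981 comparisons against vehicle, and FOSL2 and KLF6 are called lower in both comparisons of a venetoclax-containing group with vehicle.

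Adding TAK-981 to venetoclax was then read by setting the combination against venetoclax alone. JUND, JUN and EGR1 rose. JUND went from 71.6 and 67.0 CPM to 114 and 117 CPM, a log2 change of 0.74 (SE 0.0906, adjusted p = 0.000634). JUN went from 1 and 11 counts to 21 and 23, a log2 change of 2.05 (SE 0.540, adjusted p = 0.0158) and a count ratio of 3.995 with a 95% counting interval of 2.07 to 8.31. EGR1 went from 1.07 and 0.896 CPM to 2.06 and 2.04 CPM, a log2 change of 1.08 (SE 0.337, adjusted p = 0.0307). Its groups did not overlap, and neither did those of JUNB, FOSB and FOSL2, which were not called. How many genes of the whole table lacked overlap was not computed. The 3 higher calls of 10 stand beside 17.6% of all genes called higher. JUN, 1 of the 3, passed the filter only through groups in which it is higher than with venetoclax, so its call is a description. No member was called lower, beside 22.0% of all genes, and 0 fell at an unadjusted p under 0.05 or by DESeq2 or limma-voom.

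The JUND call held in all alternatives, while those of JUN and EGR1 did not. JUN had an adjusted p of 0.0934 without the second combination library and 0.0584 with the 4 libraries fitted alone. Its log2 change was 3.93 without the second venetoclax library. EGR1 was not called by DESeq2 (adjusted p = 0.0637), with the 4 libraries fitted alone (0.0583), or without either TAK-981 library (0.0533 and 0.0520), either combination library (0.117 and 0.0983) or the second venetoclax library (0.106). The log2 change of JUNB was 1.56 without the second venetoclax library, and 0.59 with an adjusted p of 0.214 in the full fit. With no filter on low counts and all libraries kept, JUNB was called higher. FOSL2 and KLF6 showed log2 differences of -0.18 and 0.022 between the combination and venetoclax alone, and neither passed the test.

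The reverse step added venetoclax to TAK-981. Set against TAK-981 alone, the combination was lower for KLF6, FOSL2 and JUN. KLF6 went from 58.1 and 51.7 CPM to 35.4 and 30.1 CPM, a log2 change of -0.74 (SE 0.120, adjusted p = 0.00820). FOSL2 went from 111 and 123 CPM to 77.5 and 86.2 CPM, a log2 change of -0.51 (SE 0.101, adjusted p = 0.0176). JUN went from 3.91 and 4.01 CPM to 0.960 and 1.68 CPM, a log2 change of -1.64 (SE 0.374, adjusted p = 0.0293). The groups did not overlap for any of the 3. Lack of overlap was also seen for members that were not called, among them EGR1 and JUNB. Its share over all genes was not computed, so it is not read as a result. The 3 lower calls of 10 stand beside 6.03% of all genes called lower. No member was called higher, beside 2.76% of all genes, though FOSB (log2 change 1.39, adjusted p = 0.0840) passed an unadjusted p of 0.05. DESeq2 and limma-voom also called 0 members higher.

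None of these 3 calls held in all alternatives. JUN lost its call without any 1 library of the vehicle, TAK-981 and combination groups, with adjusted p from 0.0664 to 0.224. FOSL2 lost its call without either TAK-981 library (0.0929 and 0.184) or either combination library (0.149 and 0.0998). KLF6 lost its call without either TAK-981 library (0.106 and 0.0574) or the second combination library (0.111). FOSB was called higher with the 4 libraries fitted alone (adjusted p = 0.0390). JUND had a log2 difference of -0.12 between the combination and TAK-981 alone, with an adjusted p of 0.446.

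The design has all 4 drug combinations, so it also allows a test of whether the effect of TAK-981 differed with venetoclax present. No member passed this interaction test, none at an unadjusted p under 0.05 (0 of 10), and DESeq2 and limma-voom called 0. Of all genes tested, 0.0311% were called (4 genes), so the test had few calls anywhere. The interaction estimate was 0.030 for JUND, -0.034 for FOSL2 and -0.013 for KLF6 on the log2 scale. For JUN it was 0.89 (SE 0.650, adjusted p = 0.469) and for EGR1 0.98 (adjusted p = 0.275). Without the second venetoclax library JUNB was called (1.19, adjusted p = 0.00765), which rests on the low JUNB level of the other venetoclax library. A difference of effect is therefore not shown for any member, and neither is its absence. Without the second venetoclax library 4440 genes were called. The 3 comparisons against vehicle share the vehicle libraries, and those of the combination share its libraries, so calls in one are not independent of calls in the next.

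The wider circle of genes around the members was read from 6 lists. Their named genes kept direction in all alternatives, which for these genes were added after seeing the data, but many calls were lost when 1 library was left out. Some were also lost with all 8 libraries fitted, under another method, scaling or filter. With TAK-981 2 of the 13 named genes were called in all alternatives (ID1 and SGK1), and with venetoclax 1 of 18 (TNFAIP3). In the combination this held for 11 of 25 against vehicle, 8 of 29 against venetoclax alone and 1 of 19 (ID2) against TAK-981 alone. Each list count below is to be read against the share of all genes called, which was 5.98% higher and 6.18% lower with TAK-981 and 11.4% higher and 9.44% lower with venetoclax. In the combination it was 12.8% higher and 15.1% lower against vehicle, 17.6% and 22.0% against venetoclax alone, and 2.76% and 6.03% against TAK-981 alone. Other partners of the same leucine zipper class came first. Of 11, 7 were tested, and with TAK-981 1 rose and 0 fell. BATF, which pairs with JUN proteins in lymphocytes, went from 13.7 and 16.4 CPM in vehicle to 22.8 and 22.0 CPM (log2 change 0.57, adjusted p = 0.0314). With venetoclax 0 rose and 1 fell: MAFF, a small MAF protein, went from 4.91 and 6.91 CPM to 2.74 and 2.92 CPM (log2 change -1.05, adjusted p = 0.0155). In the combination against vehicle 2 rose and 2 fell. BATF2, an interferon-inducible relative of BATF, went from 0.130 and 0.0854 CPM to 2.10 and 2.77 CPM, a ratio of 84 to 5 counts of 21.9 (95% counting interval 9.03 to 69.3). BATF2 was below the filter level of 0.461 CPM in all 6 other libraries and was tested only because the combination is high, so its calls are a description. It was also higher in the combination than with TAK-981 alone (log2 change 2.94, adjusted p = 0.00420) and than with venetoclax alone (3.36, adjusted p = 0.000723). ATF2, the partner of JUN at its own promoter, had a log2 change of -0.30 against vehicle with an adjusted p of 0.0497. That ATF2 call was lost with DESeq2, with its size factors, and with a mean of at least 1 CPM required. The median log2 change of the 7 was 0.047 with TAK-981, -0.075 with venetoclax and 0.051 in the combination, against medians over all genes of 0.0015, 0 and 0.012.

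Other immediate early genes numbered 36, of which 26 were tested. With TAK-981 4 rose and 2 fell. ID1, an inhibitor of helix-loop-helix factors, went from 3.69 and 3.33 CPM to 13.7 and 14.3 CPM (log2 change 1.996, adjusted p = 0.000659). SGK1, a kinase induced by serum and glucocorticoid, had a log2 change of 1.59, and GADD45B, a stress gene, one of 1.08. BTG1, an antiproliferative gene, had a log2 change of -0.63 and MYC, a growth factor response gene, one of -0.66. With venetoclax 1 rose and 7 fell. TNFAIP3, an inhibitor of NF-kappaB signalling, went from 108 and 105 CPM to 41.4 and 45.1 CPM (log2 change -1.30, adjusted p = 0.000798). BTG2, a relative of BTG1 and a p53 target, went from 29.9 and 33.2 CPM to 15.2 and 17.8 CPM (log2 change -0.93, adjusted p = 0.00615). KLF2, a relative of KLF6, was read at 44 counts in vehicle and 3 with venetoclax, a ratio of 0.0816 with a 95% counting interval of 0.0162 to 0.255. KLF2 was below the filter level in all venetoclax and combination libraries. It was tested only because the vehicle and TAK-981 groups are high, so its calls are a description. The gene that rose was ERRFI1, a feedback inhibitor of the EGF receptor (log2 change 0.81, adjusted p = 0.0413). ERRFI1 was not called by DESeq2.

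In the combination 9 of the 26 rose and 4 fell against vehicle, beside 12.8% and 15.1% of all genes. ID2 went from 29.4 and 24.9 CPM to 83.2 and 88.0 CPM (log2 change 1.65, adjusted p = 0.000249), and HES1, a Notch target, from 15.9 and 17.9 CPM to 35.4 and 48.8 CPM (1.31, adjusted p = 0.000709). Both were also higher than with TAK-981 alone, by 1.52 for ID2 and 1.15 for HES1 on the log2 scale. Against venetoclax alone 11 rose and 3 fell, beside 17.6% and 22.0% of all genes. BTG2 reached 54.0 and 70.9 CPM there (log2 change 1.91, adjusted p = 0.000133), above all vehicle and venetoclax libraries. Against TAK-981 alone 4 rose and 4 fell, the fallers including TNFAIP3 (-0.55) and BTG1 (-0.51). The median log2 change of the 26 was 0.31 with TAK-981, -0.0082 with venetoclax and 0.23 in the combination against vehicle. It was 0.58 in the combination against venetoclax, where the median of all genes was -0.021, and -0.13 against TAK-981, where that of all genes was 0.016.

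**Figure D5:**
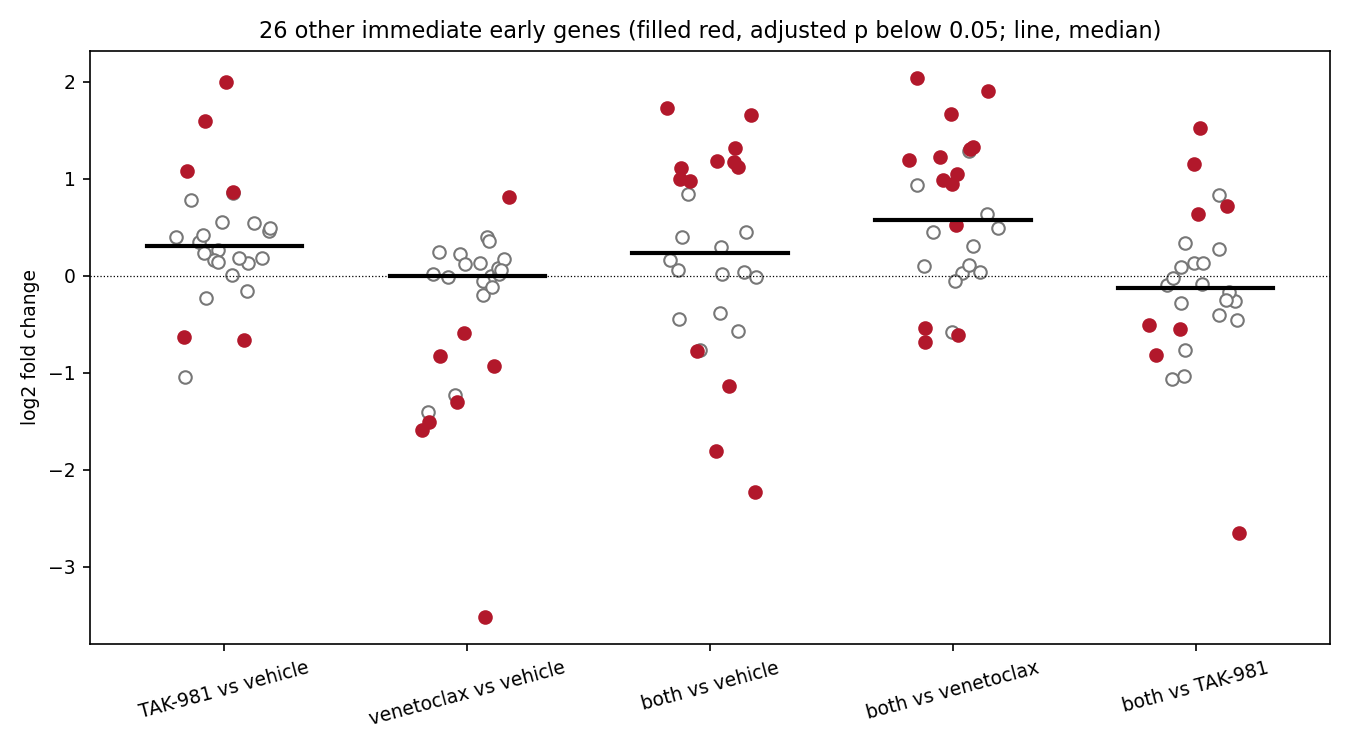
Log2 fold change of the tested genes among the other immediate early genes in the 5 pairwise comparisons, each point a gene, filled where called at an adjusted p under 0.05, with a line at the median. In the combination against venetoclax 11 of 26 genes are called higher and 3 lower, beside 17.6% and 22.0% of all genes.

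The kinases and resting factors that act on these genes came next. Of 33 tested of 34, 1 rose and 0 fell with TAK-981, namely ELK3, a partner of serum response factor (log2 change 0.65, adjusted p = 0.00502). With venetoclax 0 rose and 5 fell, among them MAP2K1, the kinase MEK1 (-0.75), and RPS6KA1, a kinase downstream of ERK (-0.63). Both values moved with the venetoclax library used: without the first they were -0.45 and -0.39, and without the second -1.13 and -0.92. In the combination against vehicle 1 rose and 7 fell, beside 12.8% and 15.1% of all genes, among them CREB1, which binds the cAMP response element, at -0.51 (adjusted p = 0.00975) and MEF2A, a MADS-box factor, at -0.66 (adjusted p = 0.00620). MAP3K11, a kinase upstream of JNK, was the gene that rose (0.99, adjusted p = 0.0412). CREB1 and its relative ATF1 were both lower in the combination than with either drug alone, CREB1 by -0.45 against venetoclax and -0.52 against TAK-981. The median of the 33 was 0.0051 with TAK-981, -0.12 with venetoclax and -0.17 in the combination.

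The feedback genes, which dampen MAP kinase signals or EGR1, numbered 15 tested of 16. With TAK-981 1 rose and 0 fell: DUSP6, a phosphatase of ERK, went from 204 and 190 CPM to 350.1 and 305 CPM (log2 change 0.74, adjusted p = 0.0354). With venetoclax 0 rose and 4 fell, including SPRY2, a brake on receptor signalling, from 38.7 and 31.6 CPM to 23.4 and 21.2 CPM (-0.66, adjusted p = 0.0148), and DUSP4 (-1.24, adjusted p = 0.0290). In the combination against vehicle 0 rose and 5 fell, including SPRY2 (-0.99), SPRED1 (-0.72) and NAB1, a corepressor of EGR1 (-0.68). Against venetoclax alone 3 rose and 3 fell, with DUSP6 again higher (0.88, adjusted p = 0.00671). SPRY4, also called higher there, rests on 34 counts against 2 (ratio 18.5, 95% counting interval 4.75 to 159), of which the second combination library held most, and its call was lost without that library (adjusted p = 0.155). The median of the 15 was 0.16 with TAK-981, -0.47 with venetoclax and -0.28 in the combination against vehicle.

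Proteins that bind the AU-rich elements of short-lived RNAs were tested for 8 of 8 genes. ZFP36, which speeds the decay of such RNAs and is also counted among the other immediate early genes, rose with TAK-981 from 11.4 and 10.8 CPM to 20.8 and 19.7 CPM (log2 change 0.87, adjusted p = 0.0310) and in the combination to 22.6 and 21.8 CPM (1.00, adjusted p = 0.00869). It was the 1 gene of the 8 to rise in either comparison, and 0 fell with TAK-981. With venetoclax 2 rose, HNRNPD (0.89) and KHSRP (0.40), and 1 fell, TIA1 (-0.39). Genes reported elsewhere as AP-1 targets numbered 12 tested of 22. With TAK-981 4 rose and 1 fell, with TIMP1, an inhibitor of matrix proteases, from 17.4 and 19.8 CPM to 31.6 and 34.3 CPM (0.82, adjusted p = 0.00435) and PLAUR, the urokinase receptor, lower (-0.72, adjusted p = 0.0283). With venetoclax 1 rose and 3 fell, with CXCL8, a chemokine, at -1.70 (-2.77 without the second venetoclax library) and BCL2L11, the BCL2-binding protein BIM, at -0.57. In the combination against vehicle 5 rose and 3 fell, with CDKN2A, a cell cycle inhibitor, from 0.869 and 1.41 CPM to 5.30 and 12.9 CPM (2.96, adjusted p = 0.00181). The log2 change of CDKN2A was 3.49 without the first combination library and 2.21 without the second. In the interaction test 0 genes of any of the 6 lists were called.

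The genes whose pattern over the 8 libraries was most like that of a member were read for JUN, JUNB and EGR1, the members at or above 1 CPM with the widest range between groups. The measure was Pearson's r on log2 CPM, given as a description, since all points share the same libraries and depth. For JUN the closest were DUSP22, a phosphatase (r = 0.996), ZNF780A (0.990) and RASSF5 (0.987). Without the 2 venetoclax libraries, the farthest from the JUN median, r was 0.982, 0.976 and 0.925. DUSP22 moved far less than JUN, over 0.62 against 3.74 on the log2 scale. For JUNB the closest were HPS6 (0.984), ATG4D (0.983) and TWF2 (0.979). Without the 2 libraries farthest from the JUNB median, r fell to 0.692, 0.591 and 0.661, so this likeness rests on those libraries. For EGR1 they were ZNF276 (0.969), MYO15B (0.960) and GALT (0.954), with r of 0.977, 0.866 and 0.784 without the venetoclax libraries.

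Set beside the promoter elements, members with the same element did not share 1 pattern. JUN and KLF6, both with TGACATCA, were both called lower with venetoclax and in the combination against TAK-981. So was FOSL2, which lacks that element. ATF3, which has it in its upstream promoter entry only, was called in no comparison. JUN and KLF6 differed with TAK-981 alone, at log2 changes of 1.16 (adjusted p = 0.0588) and 0.034. JUND, with the full cAMP response element, was called higher in each comparison that adds TAK-981. FOSB, FOSL2, FOS and EGR1, which share the shorter TGACGT, went different ways: in the combination against vehicle their log2 changes were 2.92, -0.66, 0.037 and 0.25.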

How the data were processed

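Per the labels' protocols, KG1a RNA came from miRNeasy columns and was read from 1 end. The labels name a SMART-Seq kit and the series' design text a ribosomal RNA depletion kit, so the library preparation is not settled. The submitters' processing notes name Trimmomatic, STAR 2.6.0, HTSeq 0.11.1, edgeR and hg38, with no order. Annotation release and strand setting: not given in the sources used here. The deposited table holds whole-number counts per gene, which the authors did not normalize, and it carries gene lengths, from which TPM was computed here.

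Counts of 8 libraries were fitted together in R 4.3.3 with edgeR 4.0.16 (TMM scaling, filterByExpr by group, robust quasi-likelihood F test, Benjamini-Hochberg over 12843 genes, threshold 0.05). CPM are TMM-scaled. The standard error is the log2 fold change divided by the square root of F and is approximate. Count ratios carry exact Poisson 95% intervals. The edgeR fit was tried on simulated counts of genes already past the filter, for TAK-981 against vehicle, venetoclax against vehicle and the interaction. The simulated spread of a gene was the same in every group. The other steps were not simulated. Alternatives were DESeq2 1.42.0, its size factors, limma-voom (limma 3.58.1), no filter, a mean of at least 1 CPM, a replicate block, the 4 compared libraries alone, each library left out, and both venetoclax libraries left out (added after seeing the data). The same alternatives were run on the named list genes, also added later. The members and gene lists were chosen with earlier results of these data known. The named genes are the 10 members, up to 3 called genes per direction, list and comparison by smallest p, and the 3 genes of at least 5 CPM most like each of 3 members, leaving out antisense, small RNA and uncharacterized gene symbols.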

Additional observations from a re-analysis of the deposited data

How the results depend on the processing

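No called change of a member or of a named list gene took the other sign under any alternative. Where 1 library of a group was left out, the lone library was assumed to vary like the other groups. Leaving out 1 library at a time gave 1 to 2 members and 336 to 3879 genes called with TAK-981, where the full fit called 1 and 1562. It gave 0 to 4 members and 253 to 5360 genes with venetoclax (full fit 4 and 2676), and 4 members and 1431 to 6152 genes in the combination against vehicle (4 and 3582). It gave 1 to 3 members and 2386 to 7204 genes against venetoclax alone (3 and 5086), 0 to 3 members and 65 to 3696 genes against TAK-981 alone (3 and 1130), and 0 to 1 members and 0 to 4440 genes for the interaction (0 and 4). Genes called rose to 3879 and 3865 with TAK-981 without the first or second venetoclax library, to 4109 and 5360 with venetoclax, to 6152 and 6107 in the combination against vehicle, to 3696 and 3641 against TAK-981 alone, and to 713 and 4440 for the interaction. They fell when a library of either compared group other than venetoclax was left out; the cause was not tested. With only the 4 libraries compared, 2 members and 4096 genes were called with TAK-981, 0 and 200 with venetoclax, 5740 genes in the combination against vehicle, 1 member and 2497 genes against venetoclax alone, and 3746 genes against TAK-981 alone. Without both venetoclax libraries these were 2 members and 3863 genes with TAK-981, 6110 genes in the combination against vehicle and 3678 genes against TAK-981. With no filter on low counts 2 members were called with TAK-981, 1875 genes against TAK-981 alone and 1098 genes for the interaction, and limma-voom called 2 members with TAK-981. The interaction count was 8 with DESeq2's size factors, 300 with DESeq2 and 9 with limma-voom; the cause was not tested. With a mean of at least 1 CPM required, FOSB was not tested. Medians of all genes differed by under 0.03 on the log2 scale between scalings. Depth limits FOSB (2 to 21 counts per library) and JUN with venetoclax (1 and 11 counts) most.

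Same-numbered libraries did not deviate together in every pair of groups (correlations of -0.0410 to 0.375 over 9858 genes), so the replicate numbers were not taken to pair the samples. With the replicate number as a block, 2 members were called with TAK-981, the second being JUN (adjusted p = 0.0376), and 24 genes for the interaction. The block left 4, 4, 3 and 3 members called with venetoclax, in the combination against vehicle, against venetoclax alone and against TAK-981 alone.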
